A study of Mus musculus with 4 samples.

Results

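DEAD-box and DEAH-box RNA helicases were examined in a pooled CRISPR-Cas9 knockout screen for genes that control MERVL, an endogenous retrovirus that the mouse embryo transcribes at the 2-cell stage and that a small fraction of cultured embryonic stem cells, called 2-cell-like, switch on as well. The members are the genes whose symbol begins with Ddx or Dhx followed by a digit. This rule found 54 genes, 38 named Ddx and 16 named Dhx, among the 20380 genes of the authors' deposited table. That table also holds 1132 microRNAs and 998 single non-targeting guides, 22510 entries in all.

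The cells were E14, a long-established mouse embryonic stem cell line, grown with serum and leukemia inhibitory factor (1000 U/mL) and carrying the MERVL-tdTomato reporter. A lentiviral library of 130209 guides was delivered over 24 h with 4 μg/mL polybrene to about 130000000 of these cells, which were selected for 48 h with 2 μg/mL puromycin. About 500000 cells with reporter signal were sorted at day 5, which is 3.84 sorted cells per library guide. The 4 sequenced libraries come from MERVL-positive cells (2 libraries) and from the total population (2 libraries), both pairs called sequencing repeats of 1 screen in their titles, and both groups carry the same reporter and library. Reporter fluorescence defines the positive group, and no RNA was measured, so neither the 2-cell-like state nor the expression of any helicase could be checked.

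For each gene, the authors' deposited table gives 1 log2 fold change between the groups, p-values and false discovery rates for both directions, and no value per library. No gene therefore has a spread between libraries, and depth per library is unknown. In the terms used here, enrichment means more guides in MERVL-positive cells, depletion means fewer, and a positive log2 fold change is read as enrichment. The authors' deposited table does not state the numerator. This reading is not settled, and rests on the study's title, in which Ints7 deficiency turns MERVL on, and on the place of Ints7 per the authors' deposited table at rank 157 for positive and 18586 for negative change. The log2 fold change of Ints7 was itself only 0.14 per the authors' deposited table, between the quartiles of all genes at -0.33 and 0.26, so this basis is weak. With the opposite reading every direction given here turns.

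RNA helicases of this superfamily use ATP to unwind short RNA duplexes or to strip proteins from RNA. DEAD-box members, named for the Asp-Glu-Ala-Asp residues of their ATPase core, mostly pry duplexes open locally, while DEAH-box members move along an RNA strand and pull it free. Dividing cells depend on many of them, since ribosome assembly in the nucleolus and each round of splicing use a series of helicases in a fixed order. A smaller branch, the RIG-I-like receptors, detects viral RNA in the cytosol and triggers interferon.

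No helicase gene passed a false discovery rate of 0.05 in either direction per the authors' deposited table. The lowest value was 0.985 for enrichment and 0.975 for depletion, against a share of genes passing of 0% for enrichment and 0.00491% for depletion. At an unadjusted p under 0.05, 0 of the 54 members passed for enrichment in the authors' MAGeCK comparison, where 5.02% of all genes did. For depletion 1 member passed, Ddx28, where 5.07% of all genes did. At a p under 0.01 there was 0 in either direction, beside 1.07% and 1.12% of all genes. At a p under 0.1 there were 2 for enrichment, Dhx33 and Ddx6, beside 9.96% of all genes, and 4 for depletion, Ddx28, Ddx52, Ddx58 and Dhx38, beside 10.2%. Each of the members' shares lay at or below that of all genes.

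The median log2 fold change of the 54 members was -0.017, beside -0.021 over all genes. Of the members, 26 lay above 0 and 28 below, or 51.9% below 0 beside 52.0% of all genes. Their values ran from -0.81 for Ddx18 to 0.67 for Ddx17 per the authors' deposited table, with a standard deviation of 0.348 beside 0.480 over all genes. A log2 fold change beyond 0.5 in either direction was held by 9 members, or 16.7%, beside 25.7% of all genes. The DEAD-box and DEAH-box names did not separate the values, since the 38 Ddx genes and the 16 Dhx genes had medians of -0.017 and -0.018. All 54 values lay between the 5th and the 95th percentile of the single non-targeting guides, at -1.34 and 1.11. Single guides vary more, with a standard deviation of 0.770, than gene values that mostly combine 6 guides, so this range is a loose yardstick.

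**Figure D1:**
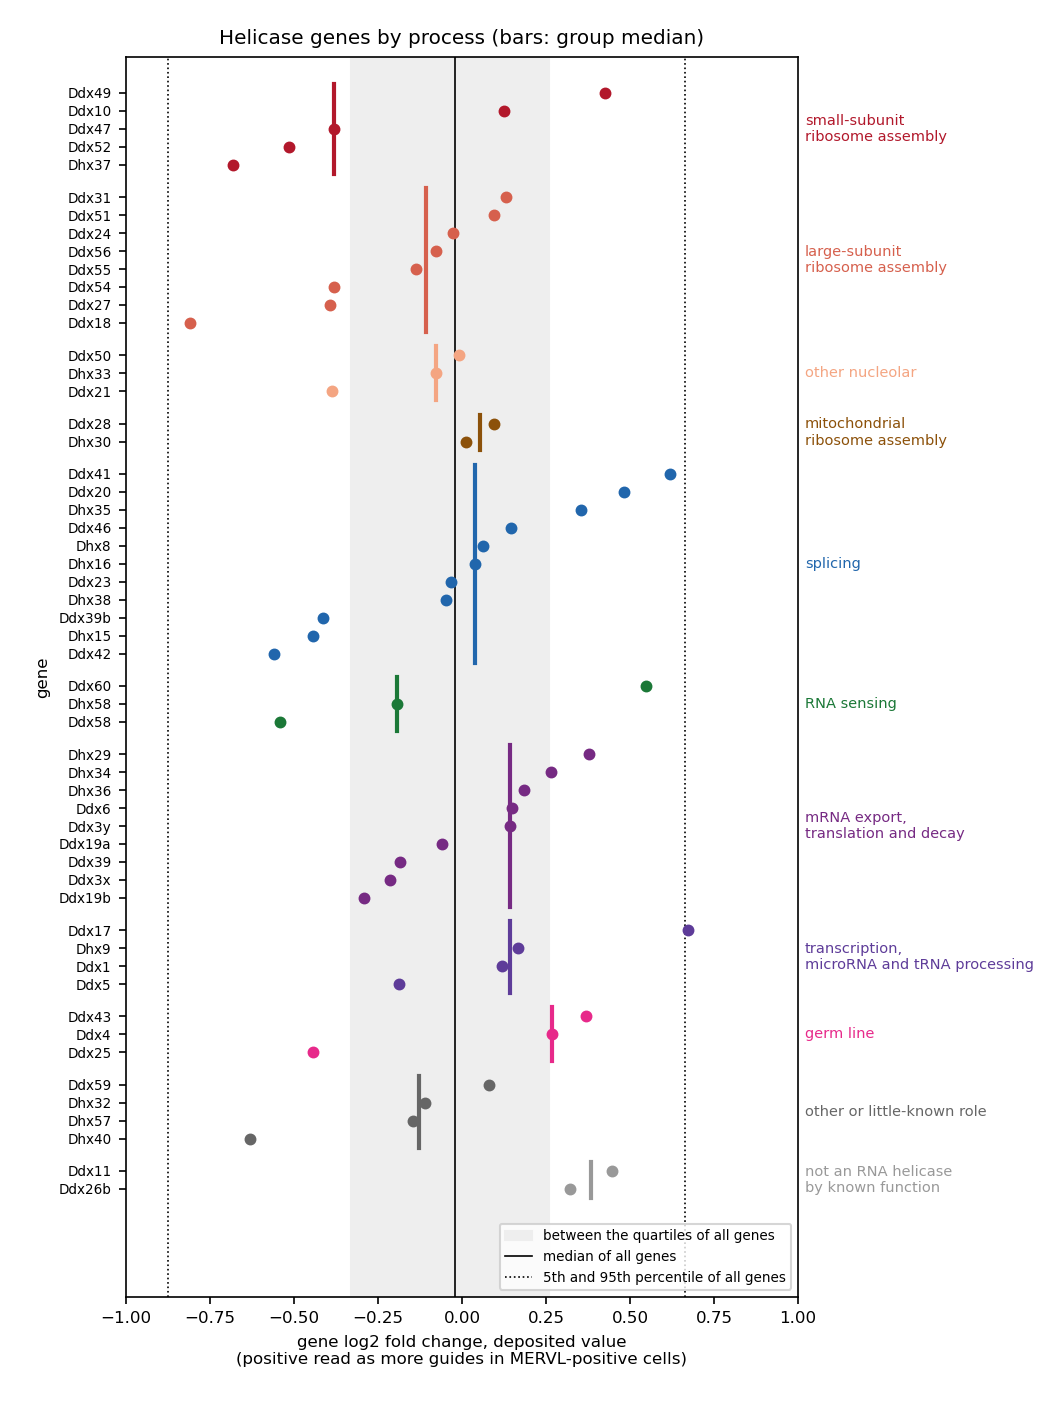
Log2 fold change of each of the 54 helicase genes from the authors' deposited table (horizontal axis), grouped by process, with a coloured bar at each group's median. The grey band lies between the quartiles of all genes, the solid line their median of -0.021 and the dotted lines their 5th and 95th percentiles. Ribosome assembly members lie mostly left of the line, splicing members on both sides, and Ddx17 alone passes a dotted line.

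Guides were counted by the authors as up or down past a threshold that is loose: among the 1112 entries with 1 guide, it fell at a positive score of about 37.4%, so being past it is weak evidence that a guide changed. The 54 members had 311 guides per the authors' deposited table, with 6 guides for 42 genes, 5 for 11 and 4 for Ddx50. Of these guides, 37.6% were up (exact 95% binomial interval 32.2 to 43.3) beside 37.4% of guides over all genes. The share down was 35.0% (29.7 to 40.6) beside 38.0%. The intervals cover counting error only, and guides of 1 gene share a target. No member had all its guides up or all down per the authors' deposited table, where 0.589% and 0.765% of all genes did. The most guides past the threshold on 1 side for any member were 4, up for Ddx17, Ddx41, Ddx43 and Ddx26b and down for Ddx18, Ddx21, Ddx25 and Ddx58, per the authors' deposited table.

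**Figure D2:**
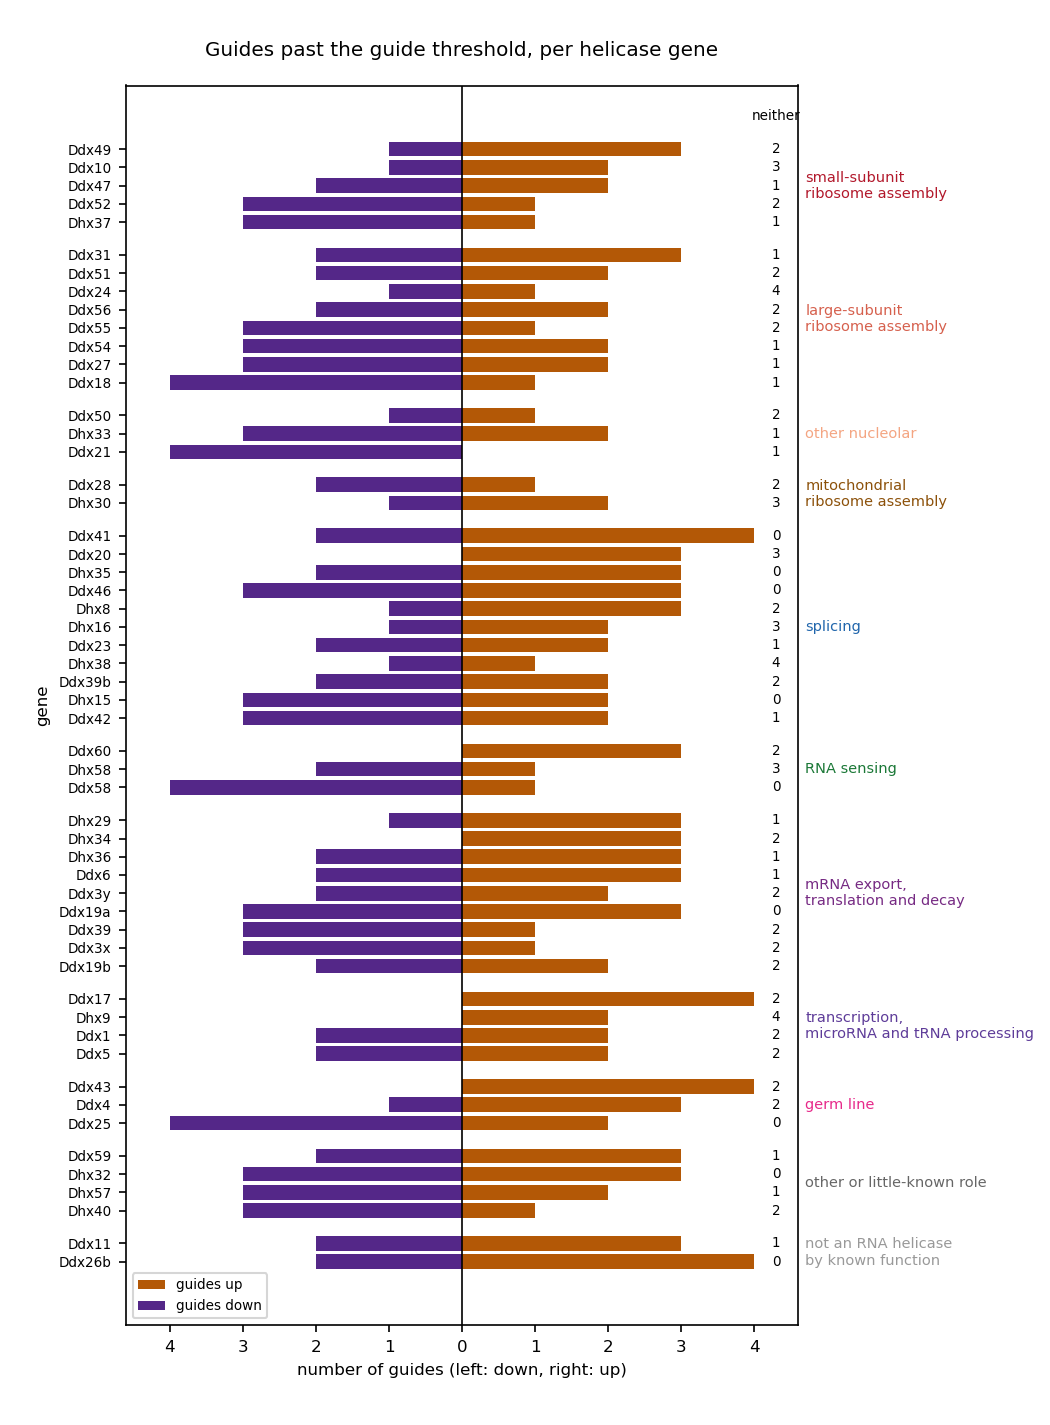
Number of guides past the authors' guide threshold for each helicase gene, up to the right and down to the left, with the number past neither at the right edge. No bar is longer than 4 guides, and most genes have guides on both sides.

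Helicases of cytosolic ribosome assembly, taken as the small-subunit, large-subunit and other nucleolar groups together and without the mitochondrial pair, lay mostly below 0. Of 16 genes, 12 (75.0%) lay below a log2 fold change of 0, beside 52.0% of all genes, and 4 above. The median of the 16 was -0.11 and their mean -0.19, beside -0.021 and -0.053 over all genes. Above the median of all genes lay 5 of the 16. Without the other nucleolar group, 9 of 13 lay below 0, or 69.2%. Lying mostly below 0 was not particular to ribosome assembly, since 3 of the 4 members of little-known role also did, with a median of -0.13. None of the 16 had an unadjusted p under 0.05 in either direction per the authors' deposited table. Over all genes the shares were 5.02% for enrichment and 5.07% for depletion. A count of 0 among 16 genes is close to these shares and does not set the process apart. Of the 91 guides of these 16 genes, 41.8% were down (exact 95% interval 31.5 to 52.6) and 28.6% up (19.6 to 39.0). Both intervals hold the guide shares over all genes, but they cover counting error only. Because guides of the same gene share a target, they do not test this group against all genes.

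Large-subunit helicases strip or rearrange pre-ribosomal RNA as the large ribosomal subunit matures, and 6 of these 8 genes lay below 0. Ddx18, the counterpart of yeast Has1, had the lowest log2 fold change of all members, -0.81 (0.570-fold), with 4 of 6 guides down and 1 up per the authors' deposited table. Its position in mm10 is chromosome 1, 121553835 to 121567980. Its depletion p was 0.162 and its false discovery rate 0.995 per the authors' deposited table, at rank 3489 of 22510. Ddx27, the counterpart of Drs1, had a value of -0.39 per the authors' deposited table, and Ddx54, that of Dbp10, one of -0.38, each with 3 guides down and 2 up. The other members of this group were closer to 0. Ddx55, the counterpart of Spb4, stood at -0.14, Ddx56 at -0.077 and Ddx24, the counterpart of Mak5, at -0.025 per the authors' deposited table. Above 0 were Ddx51 at 0.095 and Ddx31 at 0.13 per the authors' deposited table, so the group holds values of both signs.

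Small-subunit helicases act in the early pre-ribosome that forms around the U3 small nucleolar RNA. Their 5 values were the most spread of the ribosome assembly groups, from -0.68 to 0.43, with a median of -0.38. Dhx37, which releases U3 from the particle, had a log2 fold change of -0.68 (0.623-fold), with 3 of 5 guides down and 1 up per the authors' deposited table. Its position in mm10 is chromosome 5, 125413747 to 125434139. Its p-values per the authors' deposited table ran against that sign, with 0.153 for enrichment and 0.481 for depletion, with false discovery rates of 0.996 and 0.999. Ddx52, the counterpart of Rok1, stood at -0.51 with 3 guides down and 1 up and a depletion p of 0.0852 per the authors' deposited table. Ddx47, the counterpart of Rrp3, had a value of -0.38, with 2 guides down and 2 up, per the authors' deposited table. On the other side of 0 lay Ddx10 at 0.13 and Ddx49, the counterpart of Dbp8, at 0.43 per the authors' deposited table, Ddx49 with 3 guides up and 1 down.

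Other nucleolar members were Ddx21, Dhx33 and Ddx50. Ddx21, which acts in rRNA transcription and processing, had a value of -0.39 with 4 of its 5 guides down and none up per the authors' deposited table. It was the 1 member with no guide up, or 1.85% of members beside 7.37% of all genes, while 6 members, or 11.1%, had no guide down beside 7.19% of all genes. Its depletion p per the authors' deposited table was 0.183. Dhx33, linked to rRNA gene transcription, had the lowest enrichment p of all members, 0.0632, beside a log2 fold change of -0.078 with 2 guides up and 3 down per the authors' deposited table. Ddx50, the close relative of Ddx21, stood at -0.0082 per the authors' deposited table.

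In mitochondria, Ddx28 and Dhx30 serve assembly of the mitochondrial ribosome. Ddx28, on chromosome 8 from 106009616 to 106011486 in mm10, had the lowest depletion p of all members, 0.0413, with a false discovery rate of 0.975 and rank 942 per the authors' deposited table. Its log2 fold change was on the other side of 0, at 0.096, with 2 of 5 guides down, 1 up and 2 past neither threshold per the authors' deposited table. The rank and the fold change thus point in opposite directions, and the value does not give a direction for this gene. Dhx30 stood at 0.012 with 2 guides up and 1 down per the authors' deposited table.

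Splicing helicases had values on both sides of 0, with 6 of 11 above and a median of 0.039. None of the 11 had an unadjusted p under 0.05 in either direction per the authors' deposited table. Over all genes the shares were 5.02% for enrichment and 5.07% for depletion. A count of 0 among 11 genes is close to these shares and does not set the splicing members apart. The guides of the 11 genes were up in 42.9% of cases (exact 95% interval 30.5 to 56.0) and down in 31.7% (20.6 to 44.7). These intervals hold the guide shares over all genes. Here too they cover counting error only, and guides of the same gene share a target, so the difference from all genes was not tested.

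The core spliceosome is driven through its cycle by helicases known from yeast as Prp proteins, of which 6 counterparts were measured. Their median was 0.0034, with 3 above 0 and 3 below. Ddx46, the Prp5 counterpart that acts on U2 at the branch site, stood at 0.15 with 3 guides up and 3 down per the authors' deposited table. Ddx23, the Prp28 counterpart that releases U1 from the 5′ splice site, had a value of -0.032 per the authors' deposited table. Dhx16, the Prp2 counterpart that activates the spliceosome, stood at 0.039 per the authors' deposited table. Dhx38, the Prp16 counterpart that remodels it between both steps, had a value of -0.047, with 4 of 6 guides past neither threshold and a depletion p of 0.0994, per the authors' deposited table. Dhx8, the Prp22 counterpart that releases spliced mRNA, had a value of 0.062 per the authors' deposited table. Dhx15, the Prp43 counterpart that takes the spliceosome apart and also serves ribosome assembly, was the lowest of the 6, at -0.44 with 3 of 5 guides down and 2 up per the authors' deposited table.

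The other 5 splicing members lay further from 0 than all of these but Dhx15. Ddx41, found in the catalytic spliceosome and also described as a DNA sensor, had the second highest log2 fold change of all members, 0.62 (1.53-fold), with 4 of 6 guides up and 2 down per the authors' deposited table. Its position in mm10 is chromosome 13, 55530410 to 55536658, and its enrichment p was 0.249 and its false discovery rate 0.996. per the authors' deposited table Ddx20, the Gemin3 subunit of the SMN complex that builds spliceosomal snRNPs, stood at 0.48 with 3 guides up and none down per the authors' deposited table. Dhx35, found in the catalytic spliceosome, had a value of 0.35 per the authors' deposited table. Below 0 were Ddx39b, which helps U2 bind and couples splicing to mRNA export, at -0.41, and Ddx42, a partner of the U2 subunit SF3B1, at -0.56, per the authors' deposited table. Ddx39b had 2 guides up and 2 down and Ddx42 2 up and 3 down per the authors' deposited table.

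**Figure D3:**
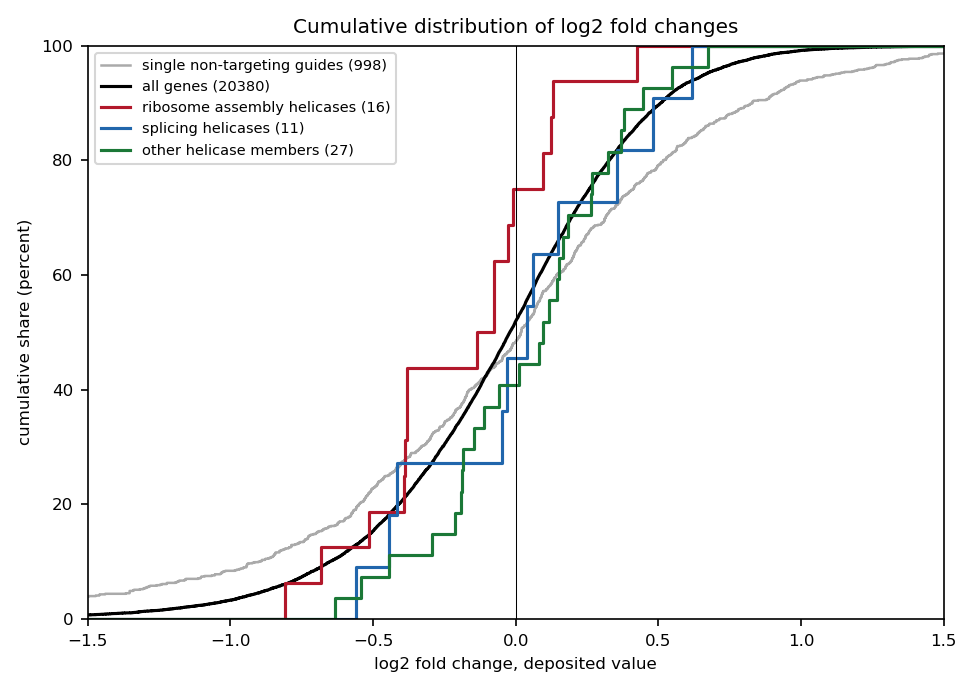
Cumulative share of log2 fold changes for 16 ribosome assembly helicases, 11 splicing helicases, 27 other helicase members, all 20380 genes and 998 single non-targeting guides. Ribosome assembly helicases reach 75.0% at 0, where all genes reach 52.0%, while the other members reach 40.7%.

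The difference between these curves was not tested. The 27 members outside ribosome assembly and splicing had a median of 0.096, with 16 above 0 and 11 below.

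RNA sensing helicases were too few and too spread to describe as a group, with values of -0.54, -0.19 and 0.55. Ddx58, which encodes RIG-I, the sensor of viral RNA ends, had a value of -0.54 with 4 of 5 guides down and 1 up per the authors' deposited table. Its depletion p was 0.0890, with a false discovery rate of 0.978 per the authors' deposited table. Dhx58, which encodes the RIG-I-like regulator LGP2, had a value of -0.19, with 2 guides down and 1 up per the authors' deposited table. Ddx60, an interferon-induced helicase linked to this pathway, had a value of 0.55 (1.46-fold), with 3 of 5 guides up and none down per the authors' deposited table. Its position in mm10 is chromosome 8, 61928073 to 62037704. Its enrichment p was 0.202 and its false discovery rate 0.996. per the authors' deposited table

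Members that serve mRNA export, translation and decay had a median of 0.14 over 9 genes, with 5 above 0. Dhx29, which helps ribosomes scan structured leaders, stood highest at 0.38, and Dhx34, a factor of nonsense-mediated decay, at 0.26 per the authors' deposited table. Each had 3 guides up, with 1 down for Dhx29 and none for Dhx34, per the authors' deposited table. Dhx36, which unwinds G-quadruplexes, had a value of 0.18 per the authors' deposited table. Ddx6, which holds mRNAs silent in P-bodies and helps remove their caps, had a value of 0.15 and the second lowest enrichment p of all members, 0.0737, per the authors' deposited table. Its guides were 3 up and 2 down, and its false discovery rate was 0.985, per the authors' deposited table. The mRNA export helicases Ddx19a, Ddx39 and Ddx19b had values of -0.060, -0.18 and -0.29 per the authors' deposited table.

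Among 4 members of transcription, microRNA and tRNA processing, Ddx17 had the highest log2 fold change of the 54 members, 0.67 (1.59-fold), with 4 of 6 guides up and none down per the authors' deposited table. Ddx17 is a partner of the microRNA-processing enzyme Drosha and a transcription and splicing cofactor, and lies on chromosome 15 from 79527696 to 79546764 in mm10. It was the 1 member above the 95th percentile of all genes, 0.66, which 5% of genes pass by construction. Below the 5th percentile, -0.87, there was none. Its enrichment p was 0.159 and its false discovery rate 0.996 per the authors' deposited table, at rank 3356. Dhx9, RNA helicase A, had a value of 0.17 with 2 guides up, none down and 4 past neither threshold per the authors' deposited table. Ddx1, of the tRNA ligase complex, stood at 0.12 per the authors' deposited table, and Ddx5, the close relative of Ddx17, at -0.19.

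Germ-line helicases are known for roles in germ cells. Ddx4, the germ-cell marker Vasa, had a value of 0.27 and Ddx43 one of 0.37, with 4 of 6 guides up and none down, per the authors' deposited table. Ddx25, of spermatids, had a value of -0.44 with 4 of 6 guides down and 2 up per the authors' deposited table. These 3 values lay inside the range of the splicing members. Dhx40, a gene of little-known role on chromosome 11 from 86768849 to 86807877 in mm10, had the third lowest log2 fold change, -0.63 (0.645-fold), per the authors' deposited table. Its guides were 3 down and 1 up of 6, with a depletion p of 0.447, with a false discovery rate of 0.999, per the authors' deposited table. Dhx57, Dhx32 and Ddx59 had values of -0.15, -0.11 and 0.080 per the authors' deposited table.

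The name rule also takes in 2 genes that are not RNA helicases by known function. Ddx11, a DNA helicase of sister chromatid cohesion, had a value of 0.45 per the authors' deposited table. Ddx26b, which RefSeq now calls Ints6l and which is a relative of the Integrator subunit gene Ints6, had a value of 0.32 with 4 of 6 guides up and 2 down per the authors' deposited table. Its enrichment p was 0.228, with a false discovery rate of 0.996 per the authors' deposited table. Without this pair the median of the members was -0.029.

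Close relatives within the family were set side by side, since guides against one copy can match the other and no guide sequence was used here, so their values are uncertain. Of 5 pairs, 2 had values on opposite sides of 0. Ddx5 and Ddx17 lay furthest apart, at -0.19 and 0.67 per the authors' deposited table. Ddx3x and Ddx3y, translation helicases on the X and Y chromosomes, had values of -0.21 and 0.14 per the authors' deposited table. On the same side of 0 were Ddx19a and Ddx19b, at -0.060 and -0.29 per the authors' deposited table. By RefSeq positions this pair lies on chromosome 8 with 5362 bases between the genes. Ddx21 and Ddx50, with 13493 bases between them on chromosome 10 by RefSeq positions, had values of -0.39 and -0.0082 per the authors' deposited table. Ddx39 and Ddx39b stood at -0.18 and -0.41 per the authors' deposited table. With 1 value per gene, no difference within a pair could be tested.

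The deposited measures often disagreed in direction for these genes. In 17 of the 54 members, or 31.5%, the sign of the log2 fold change went against the direction with the lower p per the authors' deposited table, beside 19.3% of all genes, a difference that was not tested. Ddx28, Dhx33 and Dhx37, described above, were among them, as were Ddx3x, Dhx15 and Ddx11. The enrichment and depletion p-values lay apart for Ddx3x, at 0.195 and 0.584 per the authors' deposited table. They were close for Dhx15, at 0.222 and 0.286, and for Ddx11, at 0.294 and 0.269, per the authors' deposited table. Where they are close, the lower p gives little direction. By contrast, the sign went against the larger of the guides up and down in 1 member and in 3.68% of all genes per the authors' deposited table. In all 3429 genes with most guides up, and all 3607 with most guides down, the sign was that of the majority per the authors' deposited table. A gene value that is the median of its guides would have to give this, and the sources used here do not say how the authors combined guides. What sets the disagreement with the p-values was not tested.

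**Figure D4:**
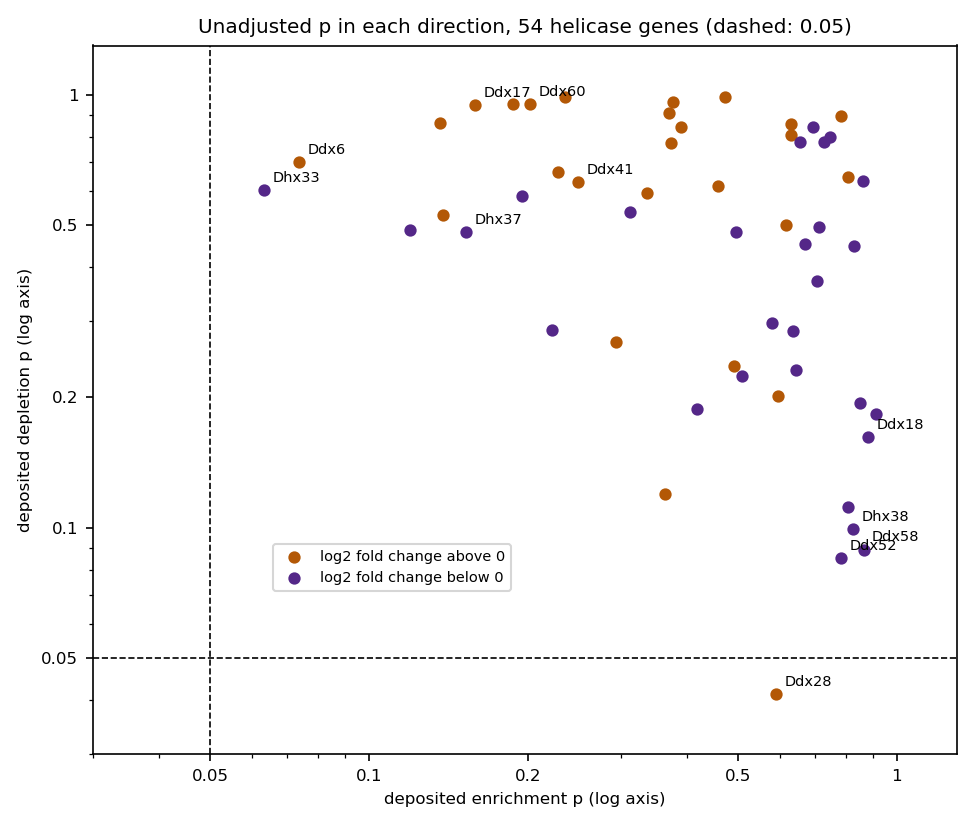
Unadjusted enrichment p (horizontal, log axis) against unadjusted depletion p (vertical, log axis) of the 54 helicase genes, from the authors' deposited table, coloured by the sign of the log2 fold change, with dashed lines at 0.05. Ddx28 at 0.0413 is the only point past either line, and its log2 fold change is above 0.

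Other genes of the same processes, from 5 lists of known partners, were read the same way, some genes standing in more than 1 list, with 0 genes past a false discovery rate of 0.05 per the authors' deposited table. Among 56 further ribosome assembly factors the median was -0.11, with 33 below 0, and 4 had an unadjusted enrichment p and 3 an unadjusted depletion p under 0.05 per the authors' deposited table, beside 5.02% and 5.07% of all genes. These counts were not tested against those shares, so the genes named next are a description. The lowest p-values went both ways. Rbm28, which acts with the large-subunit precursor, had a value of 0.44 and an enrichment p of 0.00067, and Ppan one of 0.73 and 0.00598, per the authors' deposited table. Nop2, an rRNA methyltransferase, had a value of -1.45 and a depletion p of 0.00459 per the authors' deposited table. Noc2l had an enrichment p of 0.00179 beside a log2 fold change of -0.14 per the authors' deposited table.

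Among 42 further factors of splicing or of linked snRNP assembly and mRNA export, the median was 0.060, with 20 below 0. Of the 42, 2 had an unadjusted p under 0.05 in each direction per the authors' deposited table. These counts are close to the 5.02% and 5.07% of all genes, so the genes named next are a description. Thoc1, of the THO complex that joins Ddx39b in mRNA export, had a value of 0.75 and an enrichment p of 0.00188 per the authors' deposited table. Smn1, in the complex of Ddx20, had a value of 0.79 and an enrichment p of 0.0413 per the authors' deposited table. Sf3b1, the U2 subunit at the branch site, had a value of -1.04 and Syf2 one of -0.82, with depletion p-values of 0.0228 and 0.0419, per the authors' deposited table.

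Among 25 genes of RNA sensing and interferon response the median was -0.13. Of the 25, 3 had an unadjusted enrichment p and 2 an unadjusted depletion p under 0.05 per the authors' deposited table. Over all genes the shares were 5.02% and 5.07%. The difference was not tested, so the genes named next are a description. Ifih1, which encodes MDA5, the sensor related to RIG-I, had a value of 0.70 with 5 of 6 guides up and an enrichment p of 0.0109 per the authors' deposited table. Mavs, the mitochondrial adaptor through which both sensors signal, had a value of -1.35 with 5 of 6 guides down and a depletion p of 0.00667 per the authors' deposited table. Ifnar2, an interferon receptor subunit, had a value of -1.10 and Stat2, which acts below the receptor, one of 0.83, per the authors' deposited table, with p-values of 0.00311 for depletion and 0.021 for enrichment.

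Of 19 other RNA helicases outside the name rule, which share Ifih1 with the preceding list, the median was -0.059, with 1 of the 19 under 0.05 in each direction per the authors' deposited table, close to the 5.02% and 5.07% of all genes. Eif4a3, the helicase of the exon junction complex, was the one for depletion, at -0.65 with 3 of 5 guides down, none up and a p of 0.0183, per the authors' deposited table. Of 17 protein cofactors that bind members of the family, 0 had an unadjusted p under 0.05 in either direction per the authors' deposited table, and the median was -0.065.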

How the data were processed

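Guide abundance was compared between 2 libraries of MERVL-positive and 2 of total E14 cells. The only file is a gene table that the authors deposited, whose columns, per the file headers, are those MAGeCK writes for genes. MAGeCK and mm10 are named in the submitters' processing notes. Version, normalization, settings and treatment group were not given in the sources used here. Per gene, the authors deposited log2 fold changes, p-values (with false discovery rates), scores and ranks, and counts of guides per gene, up and down. Nothing was refitted, and the deposited p-values were used with a threshold of 0.05. The titles name sequencing repeats and no separate cultures, so these p-values may measure technical spread only.

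Medians, counts and exact binomial intervals of guide shares (confidence level 95%) were computed with Python 3.11.15, pandas 2.3.3 and scipy 1.17.1, and the code was tested on simulated data. Of the 54 members, 52 matched RefSeq (GRCm38.p6, the coordinates of mm10) by symbol and 2 by synonym. No filter on low values was applied here. The library is described with 20611 genes, beside 20380 in the authors' deposited table, of which 79.8% had 6 guides. Whether guides were dropped before that is not stated in the sources used here. Members, process groups and lists were chosen with earlier results of these data known. All members are named. Full statistics were given for members with an unadjusted p under 0.05 and the 3 highest and 3 lowest fold changes, and, from each list, up to 4 genes with the lowest p under 0.05. Some further p-values were chosen after they were seen.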

Additional observations from a re-analysis of the deposited data

How the results depend on the processing

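No paired analysis was possible because the deposited table has no value per library, so the replicate block and leaving out a library were not run. The count of members called for enrichment, 0 at an unadjusted p under 0.05 in the authors' MAGeCK table, was 2 at a p under 0.1 (9.96% of all genes) and 1 for the top 5% of genes by fold change. For depletion, the count of 1 became 0 at a p under 0.01, 4 at a p under 0.1 (10.2% of all genes), and 0 with the false discovery rate, with the lowest 5% by fold change, or with only 6-guide genes. The median of all members changed sign to 0.0041 relative to the median of all genes and to 0.050 without close paralog pairs. The mean in place of the median gave -0.19 for ribosome assembly and -0.062 for RNA sensing. Leaving out each member in turn moved the RNA sensing median from -0.37 to 0.18, and that of ribosome assembly from -0.14 to -0.078. The splicing median lay between 0.0034 and 0.060 under all its alternatives. The cause of these changes was not tested. At 3.84 sorted cells per library guide and with depth unknown, a missing call leaves the effect of a helicase knockout unknown.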
